A study of Mus musculus with 17 samples.

Results

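The genes described here encode 10 early response factors: the zinc finger activators Egr1, Egr2 and Egr3, the orphan nuclear receptors Nr4a1, Nr4a2 and Nr4a3, the Krüppel-like factors Klf2 and Klf6, and Myc and Ier2. They were taken by symbol from a fixed list of such genes, and all 10 were found among the 55401 gene identifiers of the count table. The table holds RNA sequencing of primary bone marrow-derived macrophages of the mouse, cells grown from marrow in culture, in 17 libraries. Macrophages of C57BL/6J mice formed 4 groups: control (3 libraries, with what they received not stated in the labels), medium conditioned by B16F10 melanoma cells (3 libraries), that medium with KCl (3 libraries) and that medium with NaCl (2 libraries). In the C57BL/6J groups given conditioned medium, exposure lasted 6 hours and either added salt reached 40 mM. Cells whose strain label is Kcnj2f/f (3 libraries) or Lyz2-Cre-Kcnj2f/f (3 libraries) received conditioned medium and KCl labelled isotonic, and are called floxed and knockout below. The exposure time and KCl concentration of floxed and knockout cells are not stated in their labels. Kcnj2 encodes Kir2.1, a potassium channel of the inward rectifier family, and Lyz2-Cre removes floxed sequence in cells of the myeloid lineage. No group combines floxed cells with plain conditioned medium, and no C57BL/6J group received isotonic KCl.

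Early response genes are transcribed within minutes of a stimulus, with no need for new protein, and most fall back soon after because their RNAs are short-lived. Growth factor and stress signals reach them through MAP kinases acting on serum response factor and its ternary complex partners, and through cyclic AMP and calcium acting on CREB at TGACG-containing elements. In macrophages EGR1 and EGR2 act in differentiation and restrain or shape inflammatory genes. NR4A receptors damp NF-κB targets, KLF2 keeps myeloid cells quiescent, KLF6 supports inflammatory programs, and MYC with its partner MAX drives ribosome and metabolic genes. A level measured after hours of exposure is therefore a late or steady level, not the first peak of such a gene.

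The promoters of the NR4A genes are shown because all 3 hold the CREB core TGACG several times, while the RNAs of the 3 genes did not move alike. The stretches are those before a transcription start in RefSeq (GRCm38.p6), 5′ to 3′ on the gene's strand, cut where GENCODE M21 places an exon. Capitals mark TGACG, written CGTCA where it lies on the opposite strand, and in Egr2 also the CArG box, the element bound by serum response factor.
Nr4a1: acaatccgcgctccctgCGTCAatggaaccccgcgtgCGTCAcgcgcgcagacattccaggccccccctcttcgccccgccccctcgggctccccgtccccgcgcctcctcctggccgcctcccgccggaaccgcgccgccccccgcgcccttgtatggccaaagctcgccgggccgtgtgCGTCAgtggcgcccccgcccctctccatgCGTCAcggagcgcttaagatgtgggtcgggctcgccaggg
Nr4a2: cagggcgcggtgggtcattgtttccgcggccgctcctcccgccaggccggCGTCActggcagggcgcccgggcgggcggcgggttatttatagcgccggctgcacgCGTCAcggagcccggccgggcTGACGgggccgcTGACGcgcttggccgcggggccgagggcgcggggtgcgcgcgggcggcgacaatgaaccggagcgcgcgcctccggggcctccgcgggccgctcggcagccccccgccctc
Nr4a3: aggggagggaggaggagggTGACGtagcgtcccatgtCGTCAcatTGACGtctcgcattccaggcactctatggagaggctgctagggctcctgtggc
Egr2: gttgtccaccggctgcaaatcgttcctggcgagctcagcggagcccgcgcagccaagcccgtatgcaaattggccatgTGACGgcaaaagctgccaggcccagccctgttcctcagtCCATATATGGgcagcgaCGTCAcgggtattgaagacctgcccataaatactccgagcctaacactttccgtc
They lie at chr15:101266596-101266845 (plus strand), chr2:57124004-57124253 (minus strand), chr4:48045055-48045152 (plus strand) and chr10:67537680-67537868 (plus strand). Over the full 250 bases before the start, each NR4A window held 4 matches to TGACG on either strand. In Nr4a1 they begin 233, 213, 69 and 40 bases before the start, in Nr4a2 200, 144, 123 and 111 bases before it, and in Nr4a3 231, 213, 205 and 147 bases before it. The last of these in Nr4a3 falls in the cut-off exon and is not printed. Of 32851 windows of the same length, 17.8% held at least 1 match and 0.137% held 4 or more. The cut of 4 was taken from the NR4A windows and the windows were not matched for base composition, so these shares test no enrichment. The Egr2 window held 2 matches and a CArG box that begins 133 bases before the start, an element found in 1.47% of all windows.

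RefSeq windows were at hand for 6 of the 10 genes, in 10 windows, of which Egr2 had 5 for its different starts; Egr1, Egr3, Myc and Ier2 had none. Of the Egr2 windows 4 held the CArG box. Klf2 and Nr4a1 held the EGR-type sequence GCGGGGGCG, present in 2.57% of all windows, and no window of the 10 held GCGTGGGCG (0.536%). The full CRE palindrome TGACGTCA (1.55% of windows), the NR4A response element AAAGGTCA (1.34%) and the NF-κB site by its consensus (3.9%) were in none of the 10, and Klf6 matched no motif searched. TGACGTCA contains TGACG, so those searches overlap. A match is a run of letters and does not show that a factor binds.

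Library totals ran from 13503869 to 19391623 counts. Levels are CPM, the counts relative to the library total, scaled by TMM factors over all libraries. A log2 fold change, its standard error (SE) and its adjusted p come from edgeR's quasi-likelihood test with Benjamini-Hochberg adjustment over all genes tested, called at an adjusted p under 0.05. Levels of different genes are compared only per kilobase of exon. Replicates in KCl stood farther apart than the others of C57BL/6J cells (chi-square per degree of freedom 28.8 to 89.1 between pairs, against 2.05 to 5.47 elsewhere), as did those in floxed (25.3 to 133) and knockout cells (5.59 to 34.0). Counts also followed transcript length differently, by slopes taken relative to each gene's mean over all libraries. These were −0.10 to −0.01 in KCl, −0.15 to 0.10 for floxed cells and −0.14 to −0.02 for the knockout. In control, plain conditioned medium and NaCl they were 0.04 to 0.11. Macrophage markers summed to 25300 to 29200 CPM in every group except the knockout (12400 to 13600 CPM, where the Cre sits in Lyz2, the largest of the 8). The melanoma markers Tyr and Dct were at 0 in all 17 libraries and the 6 melanoma markers summed to at most 1.23 CPM. Of the 8 neutrophil markers S100a8 (4.52 to 23.9 CPM), S100a9 (0.238 to 3.83 CPM) and Camp (0.381 to 5.64 CPM) had counts in every library, and Retnlg was at 0 in all 17, Elane in 15 and Ly6g in 14. RNA from whole cultures cannot tell fewer cells of a type from less RNA per cell.

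**Figure D1:**
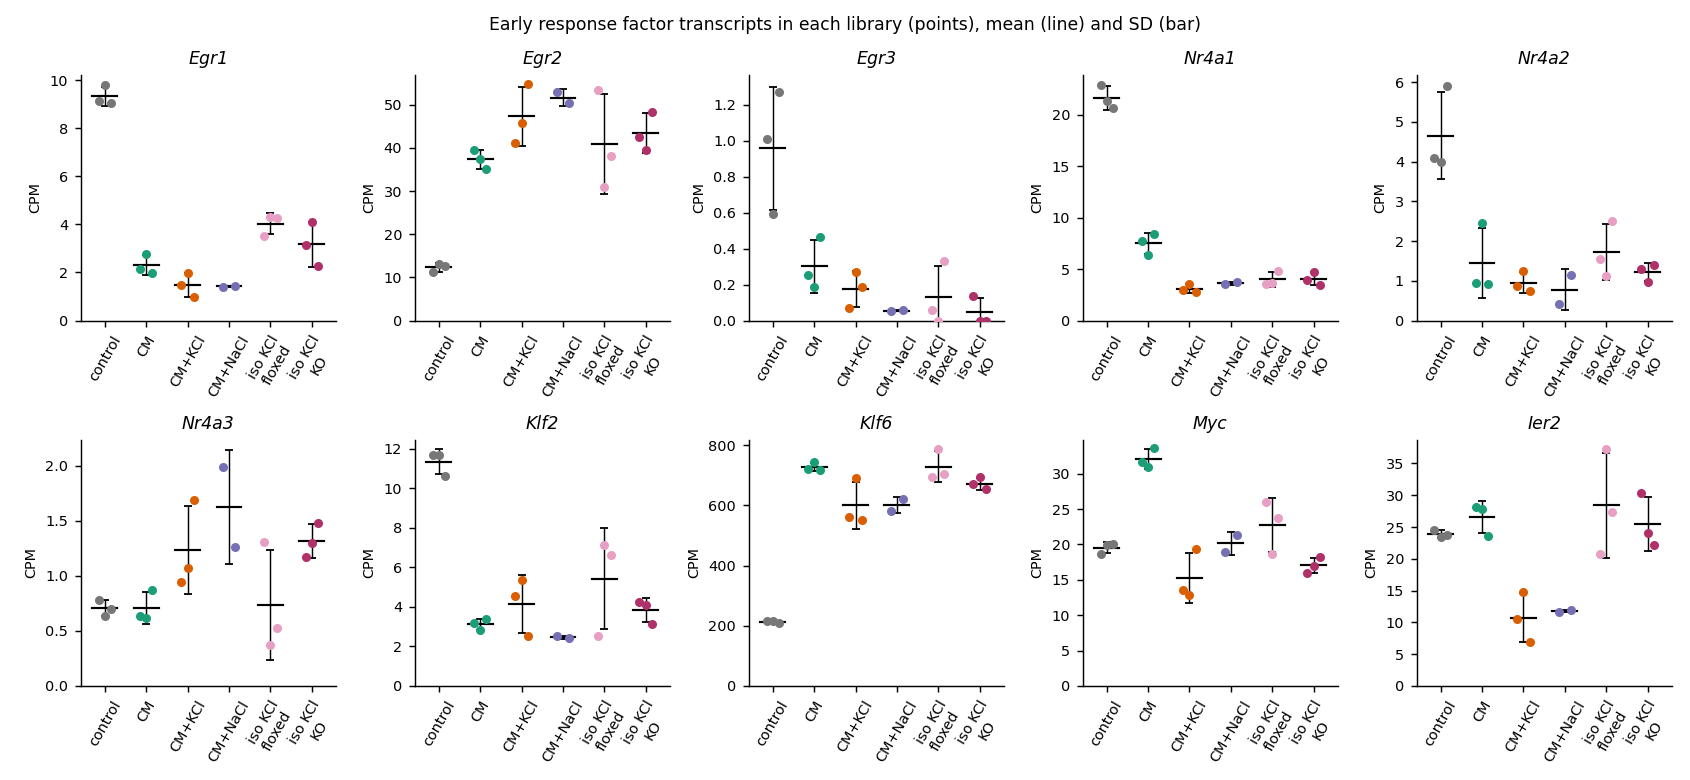
Level of each of the 10 transcripts in CPM (y axis, own scale per gene) in every library (points) of the 6 groups (x axis), with the group mean (line) and SD (bar); CM is conditioned medium and iso is isotonic. Egr1, Egr3, Nr4a1, Nr4a2 and Klf2 are highest in control cells, Klf6 and Egr2 lowest there, and Ier2 is lowest with either salt.

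Across the 6 groups, Klf6 was by far the most abundant of these transcripts per unit length, with 48.5 CPM per kilobase of exon in control cells and 166 in conditioned medium. Ier2 followed in control cells (15.7 CPM per kilobase), then Myc (7.21), Nr4a1 (6.16), Klf2 (6.13), Egr2 (3.63), Egr1 (2.08) and Nr4a2 (1.15). Egr3 (0.218 CPM per kilobase) and Nr4a3 (0.118) were close to the limit of detection. In conditioned medium Egr2 reached 11 CPM per kilobase, above Nr4a1 (2.14), Klf2 (1.69), Egr1 (0.512) and Nr4a2 (0.356).

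**Figure D2:**
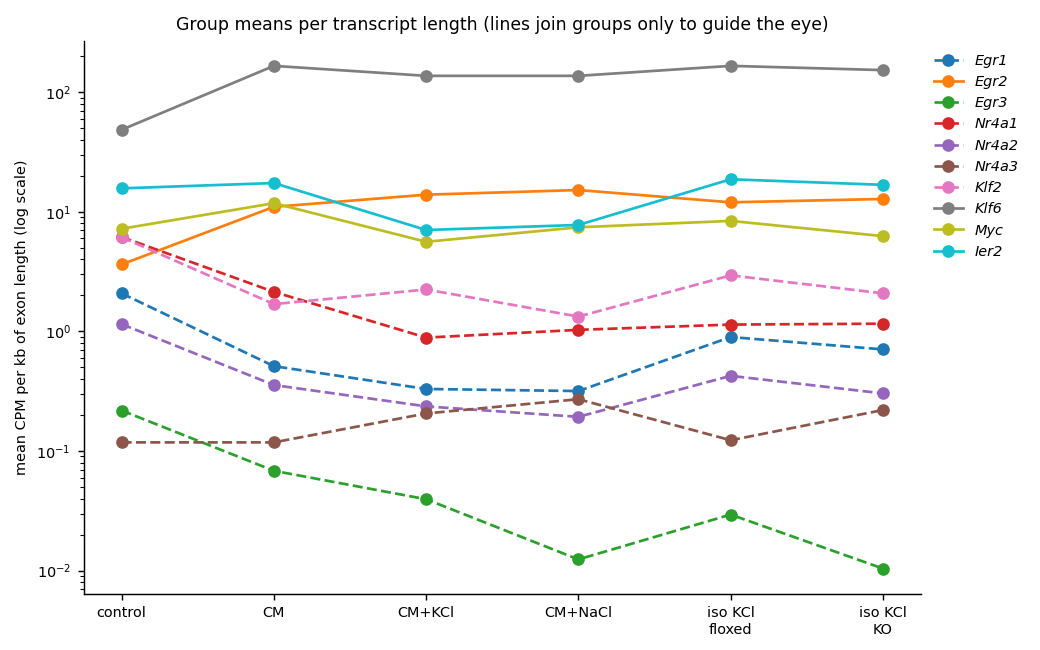
Mean level of each transcript per kilobase of exon (y axis, log scale) in the 6 groups (x axis); solid lines mark the 4 genes above 10 CPM per kilobase in at least 1 group and dashed lines the others. Klf6 runs from 48.5 in control cells to 166 in conditioned medium, and Egr2 from 3.63 to 11, while Egr1 runs from 2.08 to 0.512.

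Conditioned medium against control asked how these genes stand after 6 hours in medium conditioned by melanoma cells. The medium and time of the control cells are not stated in the labels. The EGR and KLF pairs split: Egr2 and Klf6 rose while Egr1 and Klf2 fell, Nr4a1 and Nr4a2 fell, and Myc rose. Of the 10 genes 3 rose and 5 fell, beside 53.5% of all 14519 genes tested that were called (27.2% higher, 26.4% lower), so the count is to be read against a comparison in which most genes were called. The median log2 fold change of the 10 was −0.76, against −0.04 for all genes tested. Scaling by library total in place of TMM shifted the median of all genes by −0.34 and cut the share of calls that were higher from 50.8% to 24.9%, and none of the 8 calls was lost by it. The rises were then smaller and the falls larger, at 1.25 for Egr2, 1.43 for Klf6, −2.36 for Egr1 and −2.20 for Klf2. Myc came closest to losing its call, at 0.37 (adjusted p = 0.0464). Neutrophil markers summed to 7.15 to 8.17 CPM in control and 18.4 to 22.4 CPM in conditioned medium (2 of 4 tested called higher), and dendritic cell markers to 40.7 to 45.0 and 58.2 to 66.6 CPM (2 of 4 tested called higher). Mast cell and basophil markers summed to 5.46 to 7.08 and 4.49 to 5.06 CPM (1 of 2 tested higher, 1 lower), and of 8 macrophage markers 2 were higher and 3 lower. Stromal markers summed to 541 to 670 CPM in control and 466 to 519 CPM in conditioned medium (0 of 4 tested called). The part of these cell types was not tested.

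Egr1 (chr18:34859823-34864984, GRCm38), the prototype of the family, stood at 9.13, 9.79 and 9.03 CPM in control cells and at 2.15, 2.77 and 1.98 CPM in conditioned medium. Every conditioned medium library was below every control library. The level fell from 9.32 ± 0.411 to 2.30 ± 0.415 CPM (SD, n = 3 and 3; 4.07-fold lower, log2 fold change −2.03, SE 0.19, adjusted p = 9.4e-07). Egr2 (chr10:67535475-67542188), the relative known for control of macrophage and lymphocyte activation, went the other way. It read 11.2, 13.1 and 12.7 CPM in control cells and 39.5, 37.5 and 35.1 CPM in conditioned medium, again without overlap. That was a 3.01-fold rise (log2 fold change 1.59, SE 0.11, adjusted p = 5.1e-08).

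Egr3 (chr14:70077203-70082614), which is induced alongside the others in many cells, was rare: 22, 14 and 31 counts in the control libraries and 4, 3 and 8 counts in conditioned medium. The groups did not overlap, and the log2 fold change came to −1.65 (SE 0.49, adjusted p = 0.0123). This call was lost without the control library of 31 counts (−1.38, adjusted p = 0.0609) or without the second conditioned medium library (−1.40, adjusted p = 0.0543). Taken per kilobase as shares of the 3 EGR transcripts, Egr2 made up 59.2 to 62.6% in control libraries and 94.3 to 95.6% in conditioned medium. Egr1 made up 33.3 to 36.7% and 3.95 to 5.29%, so the EGR transcripts of control cells were a mixture and those of treated cells were almost wholly Egr2.

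Nr4a1 (chr15:101254269-101274795), also known as Nur77, read 22.9, 21.3 and 20.7 CPM in control cells and 7.71, 6.39 and 8.43 CPM in conditioned medium. The groups lay well apart, and the transcript fell 2.89-fold (log2 fold change −1.53, SE 0.13, adjusted p = 2.3e-07). Nr4a2 (chr2:57106830-57124003), Nurr1, read 4.08, 3.98 and 5.91 CPM in control cells and 0.948, 2.46 and 0.931 CPM in conditioned medium. The second conditioned medium library was the high one, and still below control (log2 fold change −1.70, SE 0.37, adjusted p = 0.00149; −2.32 without it, adjusted p = 3.0e-04). Nr4a3 (chr4:48045153-48086447), NOR1, read 0.780, 0.636 and 0.698 CPM (15 to 17 counts) in control cells and 0.632, 0.615 and 0.873 CPM (10 to 15 counts) in conditioned medium. These overlapped, and the log2 fold change came to 0.00 (SE 0.36, interval −0.78 to 0.79, adjusted p = 0.995). Changes within that interval are not excluded at these low counts.

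Klf2 (chr8:72319033-72321656), the factor of myeloid quiescence, read 11.7, 11.7 and 10.6 CPM in control cells and 3.16, 2.83 and 3.37 CPM in conditioned medium. It fell 3.64-fold with no overlap (log2 fold change −1.86, SE 0.21, adjusted p = 4.4e-06). Klf6 (chr13:5861482-5870394) read 216, 215 and 208 CPM in control cells and 720, 744 and 719 CPM in conditioned medium. It rose 3.40-fold, the most precise of these changes (log2 fold change 1.77, SE 0.09, adjusted p = 9.4e-10). Per kilobase, Klf2 went from 10.8 to 11.5% of the pair in control libraries to 0.892 to 1.10% in conditioned medium.

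Myc (chr15:61985391-61990374) rose from 18.7, 19.9 and 20.1 CPM in control cells to 31.7, 30.9 and 33.7 CPM in conditioned medium. The groups did not overlap and the change was 1.63-fold (log2 fold change 0.71, SE 0.13, adjusted p = 4.3e-04). Scaled by library total, the log2 fold change of Myc was 0.37 (adjusted p = 0.0464). Ier2 (chr8:84661331-84662852), a small nuclear protein of the early response, read 24.6, 23.4 and 23.8 CPM in control cells and 28.2, 27.8 and 23.6 CPM in conditioned medium. The third conditioned medium library lay within the control range, and the log2 fold change came to 0.14 (SE 0.17, interval −0.23 to 0.51, adjusted p = 0.526), or −0.20 when scaled by library total.

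Genes that act with these factors were counted from lists. The EGR corepressors Nab1 (log2 fold change 0.61, adjusted p = 1.6e-05) and Nab2 (0.60, adjusted p = 1.2e-04), the latter itself an EGR target, both rose in conditioned medium, whereas Egr4 had 0 counts in every library of these groups. Of 11 other KLF genes tested 3 rose and 3 fell (median −0.02), with Klf3, a repressor, up (0.91), Klf7 up (2.19) and Klf10, a TGF-β early response gene, down (−1.23). Of 15 upstream factors of the SRF, ternary complex, CREB and MEF2 families 3 rose and 8 fell (median −0.32), among them Elk3 (−1.66), Mef2c (−2.65) and Crem (−1.88), all lower. Both tested retinoid X receptors, partners of Nr4a1 and Nr4a2, fell: Rxra by 0.87 and Rxrb by 0.79 on the log2 scale.

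Of 10 genes of the MAX network 3 rose and 3 fell (median −0.05). The MYC antagonists Mxd4 (−2.39) and Mxi1 (−2.31) fell and the MYC relative Mycl rose (3.02, from 1.61 to 13.1 CPM). Of 20 MYC target genes 10 rose and 1 fell (median 0.34), led by the chaperonin Hspd1 (0.64) and the ribosome biogenesis factors Wdr43 (0.65) and Ddx21 (0.77). Of 39 other immediate early genes 18 rose and 15 fell (median 0.25), with the polo-like kinase Plk2 (3.54), the stress gene Gadd45b (2.99) and the NF-κB cofactor Nfkbiz (4.03) up. The background for all these counts is the 27.2% higher and 26.4% lower given above.

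KCl against plain conditioned medium asked what the added salt changed. The same 3 conditioned medium libraries served the previous comparison and the NaCl comparison below, so the 3 sets of values are not independent. Nr4a1, Myc and Ier2 fell clearly with KCl, Klf6 and Egr1 fell slightly and Egr2 rose slightly. Of the 10 genes 1 rose and 5 fell, beside 53.9% of all genes called (26.6% higher, 27.4% lower), a share close to theirs. The median of the 10 was −0.66, against −0.01 for all genes tested; total-count scaling shifted the median of all genes by −0.21 and cut the share of calls that were higher from 49.3% to 32.6%.

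Nr4a1 read 2.95, 3.57 and 2.81 CPM with KCl, all below the lowest conditioned medium library of 6.39 CPM. It fell a further 2.45-fold (log2 fold change −1.29, SE 0.15, adjusted p = 1.3e-05). Nr4a2 read 0.873, 1.25 and 0.750 CPM with KCl (12 to 14 counts). The second lay within the range in conditioned medium and the other KCl libraries just below its lowest value of 0.931 CPM, and the log2 fold change came to −0.63 (SE 0.46, interval −1.63 to 0.37, adjusted p = 0.268). That value rests on the high second library of conditioned medium and was −0.02 without it. Nr4a3 read 0.940, 1.07 and 1.69 CPM with KCl (12 to 27 counts), above every conditioned medium library, but missed the threshold (log2 fold change 0.80, SE 0.36, interval 0.01 to 1.58, adjusted p = 0.0796). The share of Nr4a3 in the 3 NR4A transcripts per kilobase was 1.48 to 1.69% in control libraries, 4.07 to 5.26% in conditioned medium and 11.9 to 22.2% with KCl.

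Ier2 read 10.5, 14.7 and 6.94 CPM with KCl against 23.6 to 28.2 CPM without. The third KCl library was the lowest and the groups did not overlap (2.53-fold lower, log2 fold change −1.34, SE 0.19, adjusted p = 5.6e-05). Myc read 13.5, 12.9 and 19.3 CPM with KCl, where the third library was the highest and still below the 30.9 CPM of the lowest conditioned medium library (2.11-fold lower, log2 fold change −1.08, SE 0.14, adjusted p = 2.1e-05). The mean of Myc with KCl, 15.2 ± 3.54 CPM, lay below the control mean of 19.6 ± 0.758 CPM with overlapping libraries. Scaled by library total these groups did not overlap, at 10.7 to 18.1 CPM with KCl and 24.7 to 26.5 CPM in control. Klf6 read 560, 690 and 551 CPM and fell 1.22-fold (log2 fold change −0.29, SE 0.08, adjusted p = 0.0104).

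Egr1 read 1.48, 1.96 and 1.00 CPM with KCl (16 to 22 counts), just below the 1.98 CPM of the lowest conditioned medium library. The log2 fold change came to −0.68 (SE 0.24, adjusted p = 0.031), a call lost without the second conditioned medium library (−0.53, 0.12), without the first (−0.70, 0.062) or the third KCl library (−0.45, 0.149), and with only the groups compared in the fit (−0.68, 0.107). Egr2 read 41.2, 45.8 and 54.8 CPM, above the 35.1 to 39.5 CPM of conditioned medium (log2 fold change 0.33, SE 0.11, adjusted p = 0.0196). It was lost under total-count scaling (0.12, adjusted p = 0.417), with only the groups compared (0.32, 0.0658) and without the second (0.33, 0.0551) or the third (0.28, 0.0843) conditioned medium library or the third KCl library (0.21, 0.0587). Neither Egr3, with 1, 3 and 3 counts (log2 fold change −0.84, SE 0.69, interval −2.33 to 0.64, adjusted p = 0.323), nor Klf2 passed the threshold. Klf2 read 4.57, 5.35 and 2.50 CPM with KCl, so the third library was below conditioned medium and the others above it (log2 fold change 0.37, SE 0.23, interval −0.13 to 0.87, adjusted p = 0.194; 0.65, adjusted p = 0.0055, without that library).

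The length slope moved with KCl. With it as a covariate 4389 genes were called in place of 7830. The 6 calls among the 10 genes stayed on the same side and in the same direction, but Ier2 went to −2.06, Myc to −0.57 and Egr1 to −1.22, while Klf2 went to −0.41 and Egr3 to 0.38, neither called. All KCl slopes (−0.1 to −0.01) lay below those of the other C57BL/6J groups (0.04 to 0.11), so slope and KCl can hardly be told apart in this fit. The part of length-dependent recovery in the KCl differences was not tested beyond this. Stromal markers summed to 270 to 436 CPM with KCl against 466 to 519 CPM without (1 of 4 called higher and 3 lower), and dendritic cell markers to 28 to 44.6 against 58.2 to 66.6 CPM (1 of 4 tested higher and 1 lower). Mast cell and basophil markers summed to 8.06 to 9.47 CPM against 4.49 to 5.06 CPM (2 of 2 tested higher), and neutrophil markers to 15.3 to 30.0 CPM against 18.4 to 22.4 CPM (0 of 4 tested called). Of 8 macrophage markers 1 was called higher and 4 lower. The part of these cell types in the differences was not tested.

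Partner genes also moved with KCl. Nab2 fell (log2 fold change −1.25, adjusted p = 3.3e-07) and Nab1 rose slightly (0.27, adjusted p = 0.00981). Of the 11 other KLF genes 4 rose and 3 fell (median 0.02): Klf3 fell (−0.86), whereas Klf9, a glucocorticoid-responsive member, rose (1.54), as did Klf16 (0.77). Of the 15 upstream factors 8 rose and 4 fell (median 0.27), with Elk4 (1.3) and Atf1 (0.92) up and Elk1 (−1.07) down. In the MAX network 1 of 10 rose, Max itself (0.60), and 2 fell, the antagonist Mxd1 (−0.82) and Mlx (−0.41).

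Of 20 MYC target genes 3 rose and 7 fell (median −0.08), with nucleophosmin Npm1 (0.97) and the transferrin receptor Tfrc (1.10) up and the pyrimidine synthesis enzyme Cad (−1.36) down. Both retinoid X receptors rose, Rxrb by 0.58 and Rxra by 0.27. Of 39 other immediate early genes 17 rose and 9 fell (median 0.23): Fos (−2.92) and the pseudokinase Trib1 (−1.57) fell and the serum- and glucocorticoid-regulated kinase Sgk1 (1.69) rose.

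NaCl against plain conditioned medium asked whether another salt at the same strength did the same, with 2 libraries. Nr4a1, Myc and Ier2 fell here too and Egr2 rose, and Nr4a3 was called higher. Of the 10 genes 2 rose and 4 fell, beside 28.7% of all genes called (13.7% higher, 14.9% lower), and their median was −0.67 against −0.01 for all genes. Total-count scaling shifted the median of all genes by −0.07 and cut the share of calls that were higher from 48.0% to 37.0%. Where 1 NaCl library was left out, the remaining one was assumed to vary like the other groups. The 4161 genes called became 2602 and 2224 without the first and the second NaCl library and 6245 with only the groups compared. Mast cell and basophil markers summed to 6.97 to 7.15 CPM with NaCl against 4.49 to 5.06 CPM without (1 of 2 tested higher), dendritic cell markers to 45.3 to 51.0 against 58.2 to 66.6 CPM (0 of 4 tested called) and neutrophil markers to 21.2 to 24.3 against 18.4 to 22.4 CPM (1 of 4 tested lower). Stromal markers summed to 444 to 500 CPM with NaCl against 466 to 519 CPM without (0 of 4 tested called). Of 8 macrophage markers 2 were lower and none higher, and the part of these cell types was not tested.

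Nr4a1 read 3.51 and 3.72 CPM with NaCl, 2.07-fold lower than in conditioned medium (log2 fold change −1.05, SE 0.16, adjusted p = 3.6e-04). Nr4a2 read 0.419 and 1.14 CPM (8 and 20 counts), which straddle the lower conditioned medium libraries, and was not called (log2 fold change −0.89, SE 0.51, interval −2 to 0.22, adjusted p = 0.226). Nr4a3 read 1.99 and 1.26 CPM (38 and 22 counts), both above the 0.615 to 0.873 CPM of conditioned medium. Its log2 fold change came to 1.2 (SE 0.38, adjusted p = 0.0287), lost without the first NaCl library (0.84, adjusted p = 0.283) or without the first (1.13, 0.0812) or second (1.11, 0.0857) conditioned medium library.

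Ier2 read 11.7 and 11.9 CPM with NaCl and was 2.23-fold lower than in conditioned medium (log2 fold change −1.16, SE 0.21, adjusted p = 1.0e-03). Myc read 19.0 and 21.3 CPM, near the control level, and was 1.58-fold lower than in conditioned medium (log2 fold change −0.66, SE 0.15, adjusted p = 0.00432; −0.58, adjusted p = 0.0685, without the first NaCl library). The nearness of Myc to control held only under TMM scaling. Scaled by library total, Myc read 18.7 and 21.3 CPM with NaCl, below the 24.7 to 26.5 CPM of control. Klf6 read 583 and 620 CPM, below conditioned medium (log2 fold change −0.27, SE 0.09, adjusted p = 0.048). That call was lost whichever library of either group was left out (adjusted p 0.0902 to 0.271), and with RLE factors (0.0601), no low-count filter (0.0543) or a stricter filter (0.0549).

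Egr2 read 53.0 and 50.3 CPM with NaCl, above all conditioned medium libraries (log2 fold change 0.47, SE 0.12, adjusted p = 0.00863; adjusted p = 0.0762 and 0.0511 without the first and the second NaCl library). Egr1 read 1.41 and 1.43 CPM (27 and 25 counts), below all conditioned medium libraries, and missed the threshold (log2 fold change −0.68, SE 0.26, interval −1.25 to −0.12, adjusted p = 0.069). It passed under total-count scaling (−0.75, adjusted p = 0.039). Egr3 had 1 count in each NaCl library (log2 fold change −2.33, SE 0.91, interval −4.29 to −0.36, adjusted p = 0.0735, and adjusted p = 0.0488 with the length slope as a covariate). Klf2 read 2.51 and 2.40 CPM, below the 2.83 CPM of the lowest conditioned medium library (log2 fold change −0.34, SE 0.27, interval −0.91 to 0.24, adjusted p = 0.387).

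Among partners, Nab2 fell (−0.70, adjusted p = 3.2e-04) and Nab1 rose (0.46, adjusted p = 0.00129). Of 11 other KLF genes 1 rose, Klf9 (1.00), and 3 fell, among them Klf10 (−0.79) and Klf3 (−0.42; median of the list −0.04). Of 15 upstream factors 7 rose and 2 fell (median 0.41), led by Elk4 (0.77), Elk3 (0.56) and the SRF coactivator Mrtfb (0.67), all higher. No gene of 10 in the MAX network was called (median 0.13), and of 20 MYC target genes 1 was, Tfrc (0.61, higher; median −0.02). Of the retinoid X receptors Rxra rose (0.47), and of 39 other immediate early genes 11 rose and 6 fell (median 0.16), with Fos (−2.13) and Trib1 (−1.26) lower and Plk2 (1.18) higher.

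**Figure D3:**
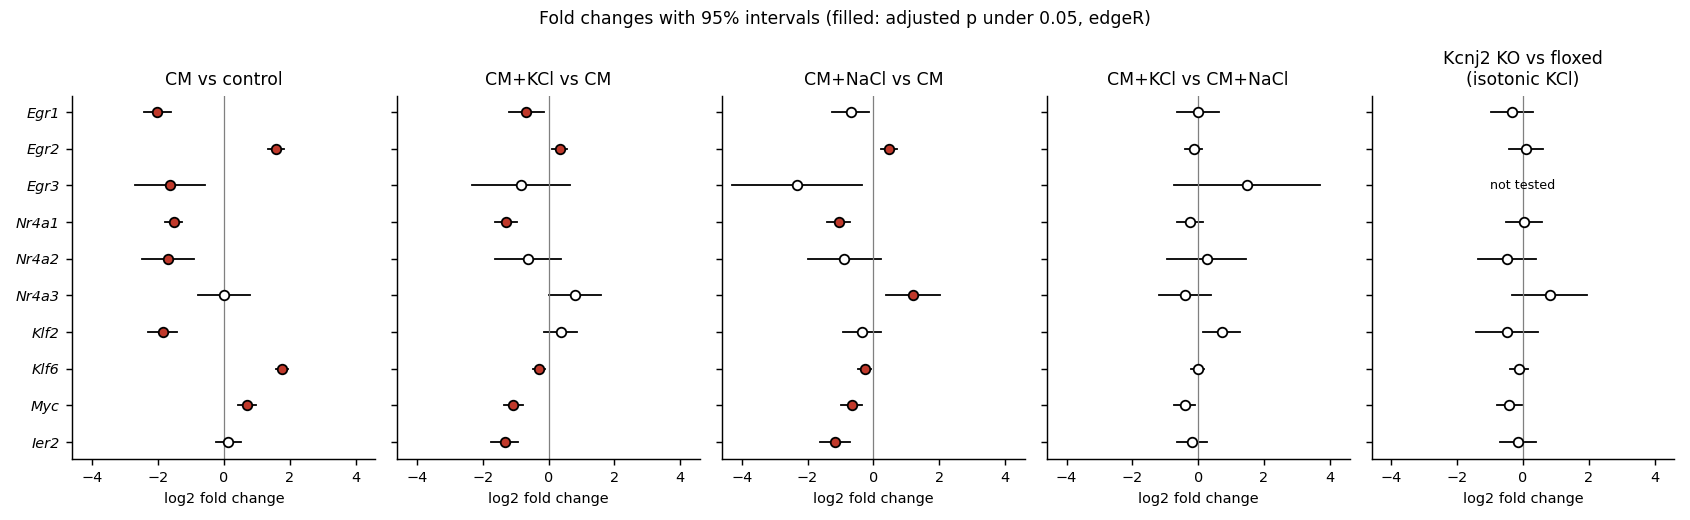
Log2 fold change (x axis) of each of the 10 genes (y axis) in the 5 comparisons, with 95% intervals; filled points have an adjusted p under 0.05. Nr4a1, Myc and Ier2 lie left of 0 with either salt, at −1.29, −1.08 and −1.34 with KCl and −1.05, −0.66 and −1.16 with NaCl.

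**Figure D4:**
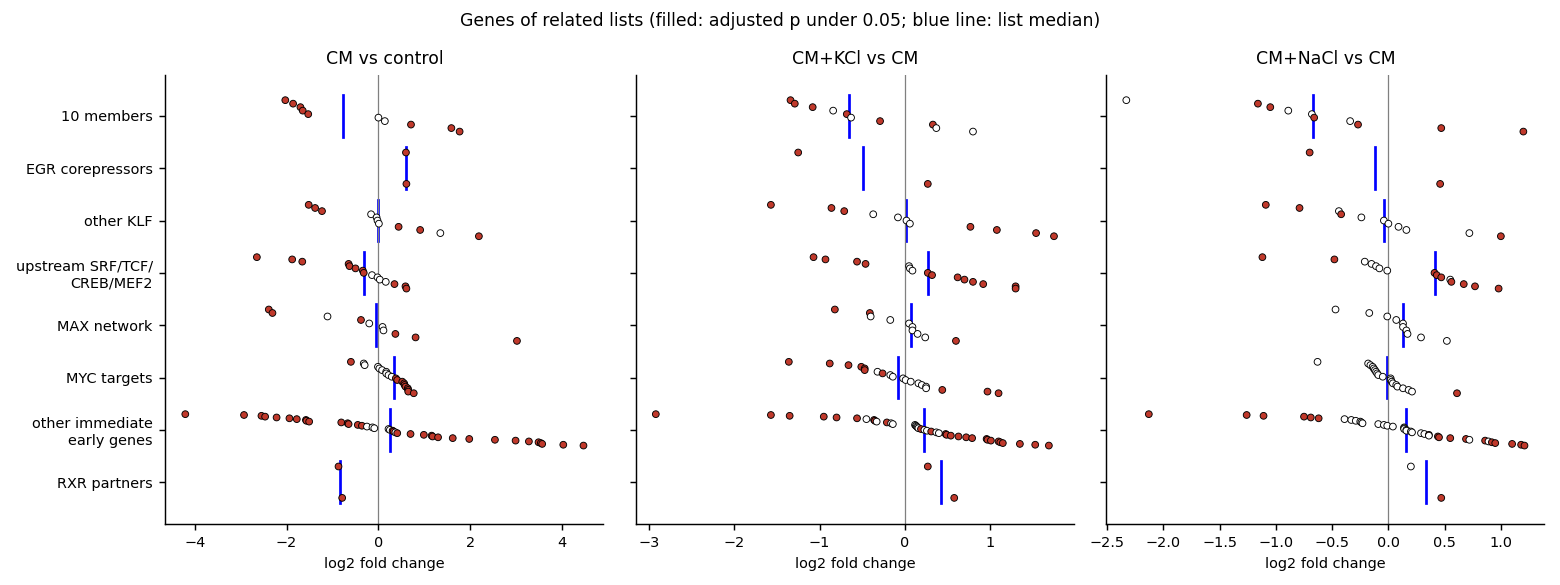
Log2 fold change (x axis, own scale per panel) of each tested gene of the 10 and of 7 related lists (y axis) in 3 comparisons; filled points have an adjusted p under 0.05 and the blue line is the list median. The median of the 10 lies at −0.76, −0.66 and −0.67.

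KCl against NaCl tested the difference between the salts itself. None of the 10 genes was called, beside 31.6% of all genes (15.4% higher, 16.2% lower), with 2 of the 10 at an unadjusted p under 0.05. That background of 4591 genes was itself unstable, at 8 genes with only the groups compared in the fit, 153 with the length slope as a covariate, 960 and 2103 without the second and the first NaCl library, and 3018 and 6989 without the first and the third KCl library. Klf2 had a log2 fold change of 0.71 (SE 0.26, interval 0.14 to 1.27, adjusted p = 0.0563) and Myc of −0.41 (SE 0.15, interval −0.74 to −0.09, adjusted p = 0.0533). DESeq2 called both (adjusted p = 0.034 and 0.0498). Without the third KCl library Klf2 stood at 0.98 (adjusted p = 6.9e-04), Myc at −0.62 (2.2e-04) and Egr2 at −0.27 (0.0312), all past the threshold. With every library kept, Klf2 and Myc were also called with no low-count filter (adjusted p = 0.0313 and 0.0246) and with a replicate block (0.0302 and 0.0117). Total-count scaling (adjusted p = 0.0278) and a stricter filter (0.0455) called Myc but not Klf2. RLE factors and a fit of only the groups compared called neither. With the length slope as a covariate neither was (Klf2 −0.19, adjusted p = 0.894, and Myc 0.18, adjusted p = 0.761), but slope and KCl can hardly be told apart there.

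For the other genes the intervals of the difference ran from −0.64 to 0.15 for Nr4a1, from −0.65 to 0.28 for Ier2, from −0.22 to 0.18 for Klf6, from −0.40 to 0.11 for Egr2 and from −0.63 to 0.63 for Egr1. They were wider for Nr4a3 (−1.18 to 0.38), Nr4a2 (−0.94 to 1.46) and Egr3 (−0.74 to 3.71), which had few counts. Among partners Nab2 was lower with KCl (−0.55, adjusted p = 0.00357). Of the other lists 4 KLF genes were higher and 1 lower of 11, 4 upstream factors higher and 3 lower of 15, 1 MAX network gene higher and 3 lower of 10, and 2 MYC targets higher and 5 lower of 20. Of 2 retinoid X receptors 1 was higher, and of 39 other immediate early genes 15 were higher and 6 lower.

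Knockout against floxed cells in isotonic KCl asked whether loss of Kir2.1 changes these genes. Kcnj2 itself read 19.7, 24.4 and 29.4 CPM in knockout and 173, 139 and 147 CPM in floxed cells, so it followed its labels (log2 fold change −2.64, SE 0.19, adjusted p = 0.015, a call lost in 4 of 6 fits that left out 1 library). Only 2 of 12782 genes tested were called (0.0156%; 0.00782% higher and 0.00782% lower), with 716 at an unadjusted p under 0.05. None of the 9 early response genes tested was called, and 1, Myc, had an unadjusted p under 0.05. No gene of the related lists was called either, and DESeq2 called 177 genes, none of them among the 9. Klf2 and Egr2 passed only with the length slope as a covariate (Klf2 −0.69, adjusted p = 0.0395; Egr2 0.27, adjusted p = 0.0492), when 1294 genes were called.

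Myc read 16, 16.9 and 18.2 CPM in knockout and 26.0, 18.6 and 23.7 CPM in floxed cells, which do not overlap (log2 fold change −0.42, SE 0.16, interval −0.80 to −0.03, adjusted p = 0.808). Klf6 also did not overlap, at 670, 693 and 654 CPM against 694, 789 and 704 CPM, with a log2 fold change of −0.11 (SE 0.11, interval −0.38 to 0.15, adjusted p = 1). The knockout values of both genes are the lower ones. Nr4a3 read 1.17, 1.3 and 1.48 CPM in knockout cells and 1.31, 0.376 and 0.526 CPM in floxed cells, where the first floxed library overlaps the knockout range (log2 fold change 0.81, SE 0.48, interval −0.32 to 1.94, adjusted p = 1).

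The first floxed library stood apart in several of these genes, and its length slope of 0.10 was above those of the other floxed libraries (−0.15 and −0.08). It had 53.5 CPM of Egr2 against 30.9 and 38.2 CPM in the others, and 2.50 CPM of Klf2 against 7.14 and 6.64 CPM. It was also the lowest for Ier2, at 20.8 CPM against 37.2 and 27.3 CPM. The knockout libraries had 42.6, 39.4 and 48.4 CPM of Egr2, 4.25, 4.11 and 3.15 CPM of Klf2 and 30.3, 24.1 and 22.1 CPM of Ier2. The log2 fold changes were 0.10 for Egr2 (interval −0.41 to 0.60), −0.49 for Klf2 (−1.44 to 0.46) and −0.15 for Ier2 (−0.71 to 0.41), each with an adjusted p of 1.

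Egr1 read 3.16, 4.11 and 2.25 CPM in knockout and 3.51, 4.29 and 4.27 CPM in floxed cells (log2 fold change −0.34, interval −0.97 to 0.29). Nr4a1 read 3.98, 4.76 and 3.47 CPM against 3.57, 3.61 and 4.80 CPM (0.03, interval −0.51 to 0.57), and Nr4a2 1.3, 0.978 and 1.41 CPM against 1.54, 1.13 and 2.50 CPM (−0.49, interval −1.38 to 0.41). These groups overlap, with an adjusted p of 1 for each. Egr3 fell below the low-count filter, with 2, 0 and 0 counts in knockout and 1, 0 and 5 counts in floxed libraries, where a count of 0 allows up to 3. Stromal markers summed to 161 to 223 CPM in knockout and 226 to 465 CPM in floxed cells, and their part was not tested.

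Set beside the C57BL/6J groups with no test, because genotype and the isotonic medium differ together and cannot be told apart, the isotonic groups took different places for different genes. Their exposure time and KCl concentration are not stated in the labels either, so neither is known to match the C57BL/6J groups. Ier2 averaged 28.4 ± 8.27 CPM in floxed and 25.5 ± 4.30 CPM in knockout cells (SD, n = 3 each), in the range of plain conditioned medium (26.5 ± 2.56 CPM) and above both hypertonic salt groups, with every isotonic library above every KCl and NaCl library. Nr4a1 averaged 3.99 ± 0.699 and 4.07 ± 0.650 CPM, below every library in plain conditioned medium and overlapping those with KCl (3.11 ± 0.400 CPM) and NaCl (3.61 ± 0.147 CPM). Of the transcripts called lower with either added salt, Ier2 stood at the conditioned medium level with isotonic KCl and Nr4a1 at the level seen with the added salts. Myc and Klf6 were also called lower with either salt, and their places are given below.

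Egr1 averaged 4.02 ± 0.446 CPM in floxed and 3.17 ± 0.930 CPM in knockout cells, and its libraries overlapped those in plain conditioned medium only in the knockout. Its order was control, then floxed, knockout and conditioned medium, then KCl and NaCl; control stood apart from all groups, and the last pair stood apart from conditioned medium. Myc was highest in conditioned medium (32.1 ± 1.42 CPM), apart from floxed cells (22.8 ± 3.77 CPM), which overlapped NaCl (20.2 ± 1.64 CPM) and control, while knockout (17 ± 1.10 CPM) overlapped KCl. Klf6 was 729 ± 52.1 CPM in floxed cells, overlapping conditioned medium (728 ± 14.5 CPM), and 672 ± 19.9 CPM in knockout cells, between conditioned medium and NaCl (601 ± 25.8 CPM). The knockout libraries overlapped those with KCl (600 ± 77.9 CPM).

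For Egr2 each of the 5 treated groups overlapped its neighbour in order from NaCl (51.7 ± 1.90 CPM) to conditioned medium (37.4 ± 2.24 CPM). The NaCl and KCl libraries all lay above those in conditioned medium, and control (12.3 ± 1.02 CPM) stood apart below all treated groups. Klf2 was highest in control (11.3 ± 0.600 CPM), apart from floxed (5.42 ± 2.55 CPM), KCl (4.14 ± 1.47 CPM), knockout (3.84 ± 0.601 CPM) and conditioned medium (3.12 ± 0.275 CPM), which overlapped, and lowest with NaCl (2.46 ± 0.0797 CPM). For Nr4a2 control stood apart above the other 5 groups, and so it did for Egr3. Nr4a3 had no neighbouring groups apart, from NaCl (1.62 ± 0.518 CPM) down to control (0.705 ± 0.0724 CPM).

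Other genes with a similar course over the 6 group means were found by the root mean square difference of log2(CPM + 1), each gene centred on its own mean, among 8701 genes. The nearest to Egr1 was Thbd, thrombomodulin (0.14), and to Nr4a1 Zfp36l2, an RNA decay factor (0.12). Egr2 was nearest to Riok3 (0.08), Klf2 to Ccn2, a matricellular protein (0.11), and Klf6 to the glycolytic enzyme Pfkl and the methylcytosine oxidase Tet2 (0.06 each). Myc was nearest to Rgs3 (0.07), and Ier2 to Fra10ac1 (0.09) and Eef1akmt1 (0.10). Nr4a2 was nearest to Snx24 (0.11). For Nr4a3 (Tns1, 0.07) and Egr3 (Tspan14, 0.04) the gene's own range on this scale was small, 0.62 and 0.89, so nearness says little.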

How the data were processed

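RNA of mouse macrophages was read from 1 deposited table of raw counts per Ensembl gene, used as the authors made it, with 1 column per library matched by title. Per the submitters' processing notes DESeq2 1.30.1 was used at an unstated step (aligner, counter, strand setting and genome build: not given in the sources used here). Of 55401 identifiers 28418 had no count in any library, and the 260 without a symbol held 0.0121% of counts. Symbols, positions and exon lengths came from GENCODE M21 (GRCm38), in which no member overlaps another gene.

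The 11 C57BL/6J libraries were fitted together and the 6 isotonic ones alone with edgeR 4.0.16 (limma 3.58.1, R 4.3.3), using TMM factors, the default filter on low counts and robust quasi-likelihood. The 10 genes and the related lists (159 symbols, all matched) were chosen with earlier results of these data known, so no count over them is independent evidence. Every member is named in each comparison, and of each list up to 3 called genes with the smallest p. Alternatives were DESeq2 1.42.0, RLE factors, total counts, no filter, a stricter filter (a mean of at least 20 counts, and 1 CPM in 3 libraries), other samples in the fit, a replicate block, a length slope covariate and leaving out each library. The length slope is that of log2 CPM, less each gene's mean over all libraries, on log2 exon length, so its sign is relative to that mean. The labels do not say whether replicates were separate animals or cultures, so a p-value reflects the spread between these samples and that spread could be technical. Replicates differed by more than sampling noise in every pair. Intervals for fold changes are at 95%, and a count of 0 allows up to 3 counts, for counting error only.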

Additional observations from a re-analysis of the deposited data

How the results depend on the processing

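Over all alternatives, 579 of the members' fold changes kept direction and call, 33 changed sign (none of them called), 25 lost and 17 gained the threshold; the cause was not tested unless a sentence says so. In conditioned medium against control 3 members were higher throughout and 5 lower, or 4 where Egr3 was filtered out (stricter filter) or lost (without control 3 or conditioned medium 2), genes called ran from 6755 to 9259, and Nr4a3 turned to −0.33 (total counts), −0.02 (no filter), −0.01 (replicate block) and −0.18 to 0.09 with 1 library left out, and Ier2 to −0.20 (total counts). For KCl against conditioned medium the genes called higher among the 10 were 0 with total counts, 0 with only the groups compared and 0 to 1 with 1 library left out; with the length slope 4389 genes were called in all, Egr3 stood at 0.38 and Klf2 at −0.41. For NaCl against conditioned medium 6245 genes were called with only the groups compared, 1 member was higher with the stricter filter, and leaving out 1 library gave 2224 to 3465 genes, 0 to 2 members higher and 2 to 3 lower. For KCl against NaCl members called higher and lower were 1 and 1 with DESeq2, no filter and the replicate block, with 1 lower under total counts and the stricter filter, and 0 to 1 and 0 to 2 with 1 library left out. Genes called there were 8 with only the groups compared, 153 with the length slope and 960 to 6989 with 1 library left out, and uncalled signs turned as follows: Klf6 0.00 (DESeq2, RLE, block; −0.12 to 0.04 with 1 library left out), Egr1 −0.14 (total counts), −0.01 (no filter), −0.62 (length slope) and −0.21 to 0.23 (1 library left out), with the length slope Egr2 0.06, Nr4a3 0.13, Klf2 −0.19 and Myc 0.18, and with 1 library left out Ier2 −0.45 to 0.06 and Nr4a2 −0.32 to 1.13. In the knockout 177 genes were called by DESeq2, 12 with no filter, 272 with all 17 libraries, 0 with the block, 1294 with the length slope (1 member higher, 1 lower; Nr4a1 −0.03) and 0 to 14 with 1 library left out, when Nr4a1 ran from −0.10 to 0.20, Egr2 from −0.07 to 0.33 and Ier2 from −0.34 to 0.08. Replicate numbers share no stated source: residuals correlated above 0.1 in 3 of 15 C57BL/6J pairs with equal numbers, 0 of 30 with unequal ones, and 1 of 3 and 3 of 6 isotonic pairs. The best match had the same number in 17 of 30 and 1 of 6 cases. The block also called Egr1 lower with NaCl than in conditioned medium (−0.76, adjusted p = 0.0388) and lost Kcnj2 in the knockout (−2.65, adjusted p = 0.263). Depth limits Egr3, Nr4a2 and Nr4a3.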
